A study of Rattus norvegicus with 288 samples.

Results

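The genes described are 9 endoplasmic reticulum chaperones of the rat: Hspa5, Hsp90b1, Hyou1, Dnajc3, Sdf2l1, Creld2, Pdia4, Pdia6 and Calr. They are 9 of 14218 genes measured, and each was read from the probe set annotated to its symbol alone. Where a gene had several such probe sets, the one with the highest mean in the tissue was taken, which applied to Hyou1 only. The genes were selected on measured values, the lower log2 signals in the liver 24 h after temsirolimus without an oral drug. That comparison is therefore given as a description, and temsirolimus was tested in other rats and at other times. The tests of sunitinib alone, sorafenib alone and the oral vehicles at 24 h, and of time in vehicle rats, reuse rats of that comparison. Those tests are not independent of the choice of the genes.

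The endoplasmic reticulum folds proteins that are secreted or placed in membranes, and its chaperones hold unfolded chains, form disulfide bonds and retain chains until they are folded. When unfolded chains accumulate, the sensors Ern1, Eif2ak3 and Atf6 start the unfolded protein response, and the factors Atf6 and Xbp1 raise transcription of chaperone genes through response elements in their promoters. Hepatocytes secrete most plasma proteins and plasma cells of the bone marrow secrete antibodies, so both are rich in these chaperones. Temsirolimus inhibits mTOR, a kinase that promotes protein synthesis, and sunitinib and sorafenib inhibit several tyrosine kinases.

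The study asked whether drugs given together change gene expression in organs that are targets of their toxicity. Male Sprague-Dawley rats aged 7 to 8 weeks, all with a cannula in the femoral vein, received Temsirolimus at 0.3 mg/kg or TEM_vehicle intravenously. After 30 min each rat received by mouth Sunitinib at 5 mg/kg, Sorafenib at 25 mg/kg, sterile water, which was the vehicle of sunitinib, or F68/PG/PEG400, which was the vehicle of sorafenib. These 8 treatments were followed for 1, 6 or 24 h with 4 rats in each group, and each of the 96 rats gave liver, heart and bone marrow, so that 288 arrays were read. All rats received 2 single doses. Controls without an active drug received TEM_vehicle and 1 oral vehicle. Controls of temsirolimus with an oral drug received TEM_vehicle and the same oral drug.

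The tissues carried their own markers. The mean log2 signal of 15 hepatocyte genes was 14.08 to 14.56 in the liver, that of 11 cardiac muscle genes was 12.60 to 13.95 in the heart, and that of 9 erythroid genes was 11.83 to 13.10 in the bone marrow. Hepatocyte genes also reached 13.98 in 1 heart array, of rat 6M68, where the median heart had 6.14. Other arrays that stood apart were the bone marrow of rat 4M45, the livers of rats 4M48 and 7M78 and the heart of rat 4M46, and the main results are given with and without them where they moved. The liver array of rat 7M78 held the lowest mean signal over the 9 chaperones, 11.17, where the median liver had 12.08. It comes from a rat given TEM_vehicle and Sunitinib. Without it the falls after temsirolimus with an oral drug are larger for most chaperones, and such results are not independent support. No numerical rule for the choice of the arrays that stood apart is given here. In bulk tissue, fewer cells of a type and less RNA per cell cannot be told apart.

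The promoters of the chaperones are shown because most of them hold the response element that the factors of the unfolded protein response bind. Chaperone genes are known targets of these factors, so the counts below are a description and no independent support. Windows of 300 bases around the gene start were matched in RefSeq for 8 of the 9 genes, on the rat build GRCr8, and Pdia6 is named only. The endoplasmic reticulum stress element ERSE was searched as CCAAT and CCACG with 9 bases of any kind between them, and the related ERSE-II as ATTGG and CCACG with 1 base between them, both on either strand. The 250 bases before the start follow for 7 genes, 5′ to 3′ in the direction of the gene, with capitals for the elements.
Hspa5, chr3:38452766-38453015, plus strand: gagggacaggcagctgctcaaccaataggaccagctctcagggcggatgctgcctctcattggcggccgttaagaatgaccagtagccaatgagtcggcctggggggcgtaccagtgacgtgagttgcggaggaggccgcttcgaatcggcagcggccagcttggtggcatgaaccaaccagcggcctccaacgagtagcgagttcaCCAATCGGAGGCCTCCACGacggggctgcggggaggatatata
Hsp90b1, chr7:23012294-23012543, minus strand: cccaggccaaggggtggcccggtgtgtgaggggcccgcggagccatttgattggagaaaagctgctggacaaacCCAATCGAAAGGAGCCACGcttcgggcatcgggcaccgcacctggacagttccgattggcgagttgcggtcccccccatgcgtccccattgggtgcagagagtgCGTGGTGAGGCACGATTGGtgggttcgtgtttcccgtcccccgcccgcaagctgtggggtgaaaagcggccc
Hyou1, chr8:53602632-53602881, plus strand: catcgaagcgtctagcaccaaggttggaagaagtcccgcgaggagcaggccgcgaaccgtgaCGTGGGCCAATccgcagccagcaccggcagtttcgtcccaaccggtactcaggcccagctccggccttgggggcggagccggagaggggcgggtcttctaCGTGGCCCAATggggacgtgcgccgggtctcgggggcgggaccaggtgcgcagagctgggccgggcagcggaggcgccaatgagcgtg
Dnajc3, chr15:102432417-102432666, plus strand: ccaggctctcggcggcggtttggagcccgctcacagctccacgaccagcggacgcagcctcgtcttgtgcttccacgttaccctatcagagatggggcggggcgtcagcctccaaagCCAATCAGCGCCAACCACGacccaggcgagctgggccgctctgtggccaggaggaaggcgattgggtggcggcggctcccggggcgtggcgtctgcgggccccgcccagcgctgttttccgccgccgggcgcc
Creld2, chr7:121789134-121789383, plus strand: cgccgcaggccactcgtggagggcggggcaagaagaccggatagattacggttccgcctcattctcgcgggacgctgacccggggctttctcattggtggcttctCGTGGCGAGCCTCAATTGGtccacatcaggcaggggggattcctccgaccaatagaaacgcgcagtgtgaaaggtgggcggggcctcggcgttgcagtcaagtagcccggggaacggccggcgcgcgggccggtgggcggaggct
Calr, chr19:40213117-40213366, plus strand: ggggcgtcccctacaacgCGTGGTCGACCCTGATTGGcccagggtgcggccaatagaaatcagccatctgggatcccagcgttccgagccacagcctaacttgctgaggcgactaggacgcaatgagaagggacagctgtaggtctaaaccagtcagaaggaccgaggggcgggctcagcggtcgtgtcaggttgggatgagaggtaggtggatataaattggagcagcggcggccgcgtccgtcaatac
Sdf2l1, chr11:97376628-97376877, plus strand: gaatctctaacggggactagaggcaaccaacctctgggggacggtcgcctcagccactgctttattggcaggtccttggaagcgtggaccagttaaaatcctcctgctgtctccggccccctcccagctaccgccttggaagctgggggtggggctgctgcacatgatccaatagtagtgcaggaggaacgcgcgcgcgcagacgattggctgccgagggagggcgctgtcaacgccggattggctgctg
The first base of the ERSE lay at -43 in Hspa5, at -133 in Dnajc3, at -176 and, in reverse, at -72 in Hsp90b1, and in reverse at -145 in Creld2 and -232 in Calr, counted from the gene start. Hyou1 held ERSE-II in reverse at -188 and -88, and the UPRE core TGACGTGG at -191 overlapped the first of them. These lay before the start printed here, and the window of another annotated Hyou1 start held neither ERSE nor ERSE-II. ERSE was found in 5 of 8 chaperones and in 22 of 33469 promoters, or 0.0657%. Chaperones are counted here as genes over all their starts and promoters as single windows, so the shares are not in the same unit. ERSE-II was found in 1 of 8 and in 17 promoters, or 0.0508%, and the UPRE core in 1 of 8 and in 199 promoters, or 0.595%. Sdf2l1, which is printed as the member with the largest changes in the liver, and Pdia4 held neither ERSE nor ERSE-II in this window. A form of ERSE that ends in CCACC was in 34 promoters, or 0.102%, and in 0 of 8. A match is a description of the letters and not a site of binding.

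All 9 chaperones had signals above the middle of the genes of each tissue. On the log2 scale of the arrays, Hspa5, the endoplasmic reticulum member of the HSP70 family, had a mean signal of 13.25 in liver, 11.89 in heart and 11.89 in bone marrow. Hsp90b1, the HSP90 of this compartment, had 13.22, 11.67 and 11.70 in the same order, and the disulfide isomerase Pdia6 had 13.10, 11.62 and 12.00. Hyou1, a nucleotide exchange factor of Hspa5, was measured lowest, with 8.78 in liver, 8.10 in heart and 7.76 in bone marrow. Signals of different probe sets cannot be compared as levels of RNA, so each gene stood at its own percentile of the tissue, from 50.7 for Hyou1 in bone marrow to 98.2 for Hspa5 in liver. All 9 genes were read from the same probe set in the 3 tissues.

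In the liver 24 h after temsirolimus without an oral drug, the comparison that chose the genes, all 9 had negative changes, with a median log2 change of -0.57, or -0.54 without the arrays that stood apart. The largest was that of Sdf2l1, a partner of Hspa5 in a complex of chaperones, which had -1.19 ± 0.15 (standard error, 8 rats against 8). Its log2 signal was 10.18, 10.42, 10.38 and 10.66 after Temsirolimus and sterile water, against 11.72, 11.83, 11.62 and 11.19 after TEM_vehicle and sterile water. It was 10.06, 10.73, 10.46 and 10.55 after Temsirolimus and F68/PG/PEG400, against 11.63, 11.23, 11.72 and 12.00 after TEM_vehicle and F68/PG/PEG400. Every temsirolimus rat lay below every vehicle rat, but these values chose the gene, so the separation is no test. How many of all genes were separated here was not counted. Creld2, a disulfide isomerase-like protein, had a change of -0.91 ± 0.15, Pdia4 had -0.61 ± 0.09 and Hyou1 -0.61 ± 0.17. The other 5 changes ran from -0.57 ± 0.08 for Hsp90b1 to -0.38 ± 0.07 for Hspa5. In these rats the median change was -0.31 in the heart, with -0.61 ± 0.11 for Hspa5 as the largest, and -0.26 in the bone marrow, with -0.32 ± 0.20 for Hsp90b1.

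Rats that received temsirolimus with sunitinib or sorafenib share no animal with that comparison, and were set against rats given TEM_vehicle with the same oral drugs. In their livers at 24 h, 8 of the 9 chaperones fell after temsirolimus and none rose, by limma with Benjamini-Hochberg adjusted p-values over all genes and a threshold of 0.05. The same test called 7.86% of 14218 genes in either direction and 1.88% as lower. The median change was -0.40 over the chaperones and 0.03 over all genes.

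**Figure D1:**
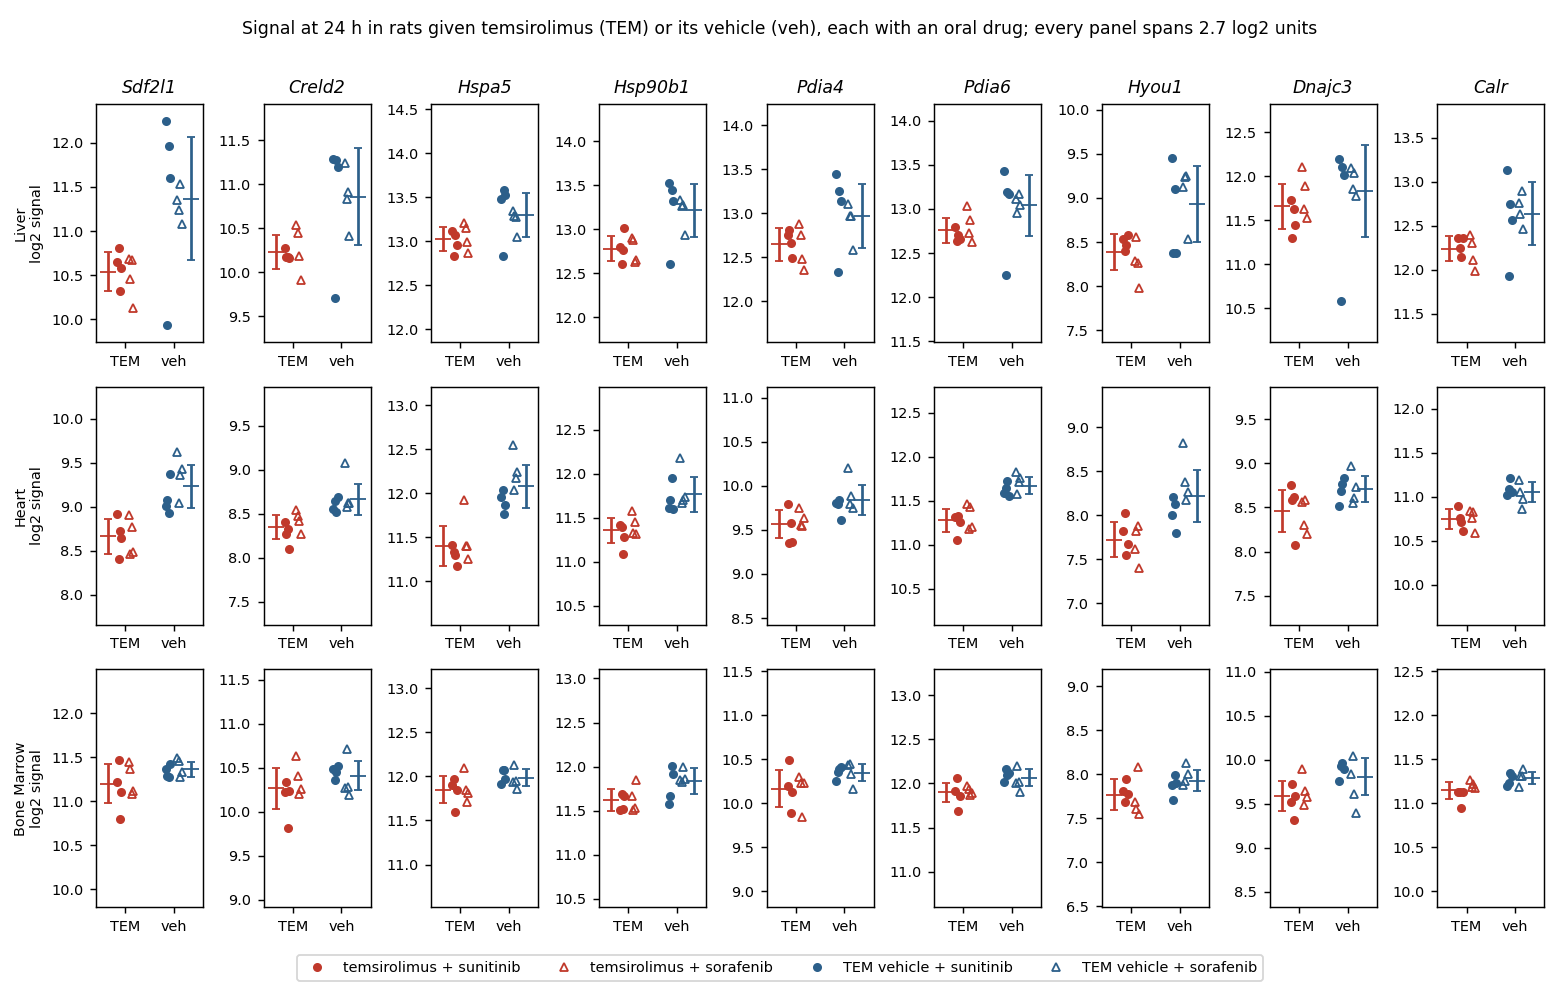
Log2 signal of each chaperone at 24 h in each rat given temsirolimus (TEM, red) or TEM_vehicle (veh, blue) with sunitinib (circles) or sorafenib (triangles); bars are the mean and SD of 8 rats, and all panels span the same range. In the liver the lowest vehicle rat for 8 of 9 genes, 7M78, lies apart from the others, and in the heart the groups do not overlap for Sdf2l1, Hsp90b1 and Pdia6 (0.141% of all genes were lower without overlap there).

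Sdf2l1 again had the largest change in the liver, -0.83 ± 0.15 (adjusted p = 0.00042), or 0.561 of the vehicle level. Its log2 signal was 10.65, 10.81, 10.32 and 10.58 after Temsirolimus and Sunitinib, against 12.25, 9.93, 11.97 and 11.60 after TEM_vehicle and Sunitinib. It was 10.68, 10.45, 10.67 and 10.13 after Temsirolimus and Sorafenib, against 11.35, 11.24, 11.53 and 11.08 after TEM_vehicle and Sorafenib. The 8 temsirolimus rats lay below 7 of the 8 vehicle rats, and the exception was rat 7M78 at 9.93. Creld2 fell by 0.62 on the log2 scale, with a standard error of 0.15 (adjusted p = 0.00643). Its signals were 9.91 at the lowest, 10.18 at the median and 10.54 at the highest with temsirolimus, against 9.71, 11.05 and 11.28 with the vehicle.

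Of the core chaperones in the liver, Hsp90b1 had a change of -0.43 ± 0.08 (adjusted p = 0.000457) and Hspa5 of -0.27 ± 0.07 (adjusted p = 0.014). The signals of Hsp90b1 were 12.61, 12.78 and 13.01 (lowest, median and highest) with temsirolimus, against 12.61, 13.30 and 13.53 with the vehicle. Those of Hspa5 were 12.83, 13.03 and 13.21 with temsirolimus, against 12.83, 13.31 and 13.58 with the vehicle, so the ranges overlapped for both genes. Calr, a lectin chaperone that holds glycoproteins and binds calcium, had a change of -0.40 ± 0.09 (adjusted p = 0.00316), with 11.99, 12.27 and 12.40 against 11.93, 12.69 and 13.13. Only rat 7M78 among the vehicle rats lay below the highest temsirolimus rat for Calr, as for Sdf2l1. The isomerases Pdia4 and Pdia6, which form disulfide bonds, had changes of -0.32 ± 0.09 (adjusted p = 0.0142) and -0.28 ± 0.07 (adjusted p = 0.00929). Hyou1 had -0.55 ± 0.17 (adjusted p = 0.0382), and Dnajc3, a J-domain partner of Hspa5, had -0.17 ± 0.10 and did not pass (adjusted p = 0.24).

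Without rat 7M78 the change of Dnajc3 was -0.37 (adjusted p = 0.000157) and all 9 chaperones passed, with -1.08 for Sdf2l1 and -0.82 for Creld2, and 492 of all genes passed, against 1117 with that rat. Rat 7M78 was a vehicle rat with low chaperone signals, so this refit is not independent support. When each of the 16 rats was left out in turn, 7 to 9 chaperones passed, and shares of all genes are not given for each refit. Hyou1 lost its call without any 1 of 7 rats (6M65, 7M77, 5M54, 6M72, 8M95, 5M53 or 6M71), with an adjusted p of up to 0.0796. Within the oral drugs, 4 rats against 4, 5 of 9 passed with sunitinib, where 7.03% of all genes did and the vehicle group holds rat 7M78, and none of 9 with sorafenib, where 0.302% did and 7 chaperones had an unadjusted p under 0.05. Without the arrays that stood apart 8 passed with sunitinib and 6 with sorafenib, where 3.02% and 4.8% of all genes did. Sdf2l1 had -0.85 ± 0.22 with sunitinib and -0.82 ± 0.22 with sorafenib (adjusted p = 0.0743 with sorafenib). The mean level of 12 proliferation genes was 7.00 ± 0.72 (SD, n = 8, 6.26 to 8.16) with temsirolimus and 7.67 ± 0.65 (7.04 to 8.97) with the vehicle, and 3 of the 12 fell. Its part in the chaperone changes was not tested.

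In the heart of the same rats, 6 of the 9 chaperones fell after temsirolimus with an oral drug, where the test called 0.281% of all genes in either direction and 0.239% as lower. The median change was -0.39 over the chaperones and -0.01 over all genes, and of the 40 genes called 6 were chaperones of this list. Hspa5 had the largest change, -0.68 ± 0.11 (adjusted p = 7.33e-05), or 0.625 of the vehicle level. Its log2 signal was 11.41, 11.34, 11.30 and 11.17 after Temsirolimus and Sunitinib, against 11.96, 12.04, 11.77 and 11.87 after TEM_vehicle and Sunitinib. It was 11.93, 11.40, 11.40 and 11.26 after Temsirolimus and Sorafenib, against 12.55, 12.04, 12.18 and 12.24 after TEM_vehicle and Sorafenib. With either oral drug every temsirolimus rat was below every vehicle rat, and across both drugs the groups overlapped through 1 temsirolimus rat at 11.93. The share of all genes separated within an oral drug was not counted.

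Pdia6 had a change of -0.39 ± 0.07 in the heart (adjusted p = 0.0011), with signals of 11.06, 11.29 and 11.46 (lowest, median and highest) with temsirolimus, against 11.55, 11.68 and 11.83 with the vehicle. Hsp90b1 had -0.41 ± 0.09 (adjusted p = 0.0294), with 11.09, 11.35 and 11.58 against 11.60, 11.70 and 12.18. Sdf2l1 had -0.57 ± 0.13 (adjusted p = 0.0297), with 8.40, 8.68 and 8.92 against 8.93, 9.22 and 9.62. For these 3 of the 9 genes every temsirolimus rat was below every vehicle rat, as for 20 of all 14218 genes, or 0.141%. Hyou1 fell by 0.50 on the log2 scale (standard error 0.10, adjusted p = 0.0134) and Calr by 0.31 (standard error 0.07, adjusted p = 0.0297). Creld2, Pdia4 and Dnajc3 had -0.31 ± 0.10, -0.27 ± 0.14 and -0.25 ± 0.16 and did not pass (adjusted p = 0.216, 0.763 and 0.846). Without an oral drug at 24 h, Hyou1 had -0.31 in the heart, and -0.03 when read from its second probe set.

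The calls for Hspa5 and Pdia6 in the heart held without any 1 of the 16 rats, and the others depended on single rats. Without rat 8M89, which had the highest Hspa5 signal of 12.55, 2 chaperones passed, and without 6M72, 6M66 or 5M59 3 passed. Without 5M54, 7M78, 7M83 or 5M60 4 passed, and without 8M95, 7M84 or 8M90 5 passed. No share of all genes is given for these refits. Within the oral drugs, 4 rats against 4, few genes passed at all, 3 of 14218 with sunitinib and 4 with sorafenib. None of the 9 chaperones was among them with sunitinib, where 6 had an unadjusted p under 0.05, and 2 were with sorafenib, Hspa5 with -0.75 and Hyou1 with -0.73. The mean level of the 15 hepatocyte genes in these hearts was 8.09 ± 2.49 (SD, n = 8, 5.82 to 11.72) with temsirolimus and 7.26 ± 1.27 (6.01 to 8.72) with the vehicle. With that level as a covariate 6 of 9 passed, and no share of all genes is given for that fit. In a separate fit without the arrays that stood apart 6 passed, where 0.746% of all genes did.

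In the bone marrow of the same rats, none of the 9 chaperones passed in limma, where the test called 103 genes or 0.724% of all, and 1092 genes, with 5 chaperones among them, had an unadjusted p under 0.05. All 9 changes were negative, from -0.22 ± 0.20 for Hsp90b1 to -0.14 ± 0.05 for Calr. The lowest adjusted p was 0.0954, of Dnajc3 with -0.21 ± 0.06, whose signals were 9.31, 9.59 and 9.89 with temsirolimus, against 9.40, 9.87 and 10.04 with the vehicle. It passed when rat 8M96 (adjusted p = 0.0408) or 7M77 (adjusted p = 0.0326) was left out. Without the array of rat 4M45, which belongs to another group but enters the common estimate of the spread, Hsp90b1 (-0.22, adjusted p = 0.046) and Pdia6 (-0.17, adjusted p = 0.0346) passed, where 1.88% of all genes did. The mean level of 6 plasma cell genes was 8.65 ± 0.13 (SD, n = 8, 8.54 to 8.89) with temsirolimus and 8.91 ± 0.19 (8.64 to 9.15) with the vehicle, none of the 6 passed, and its part in the chaperone changes was not tested.

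**Figure D2:**
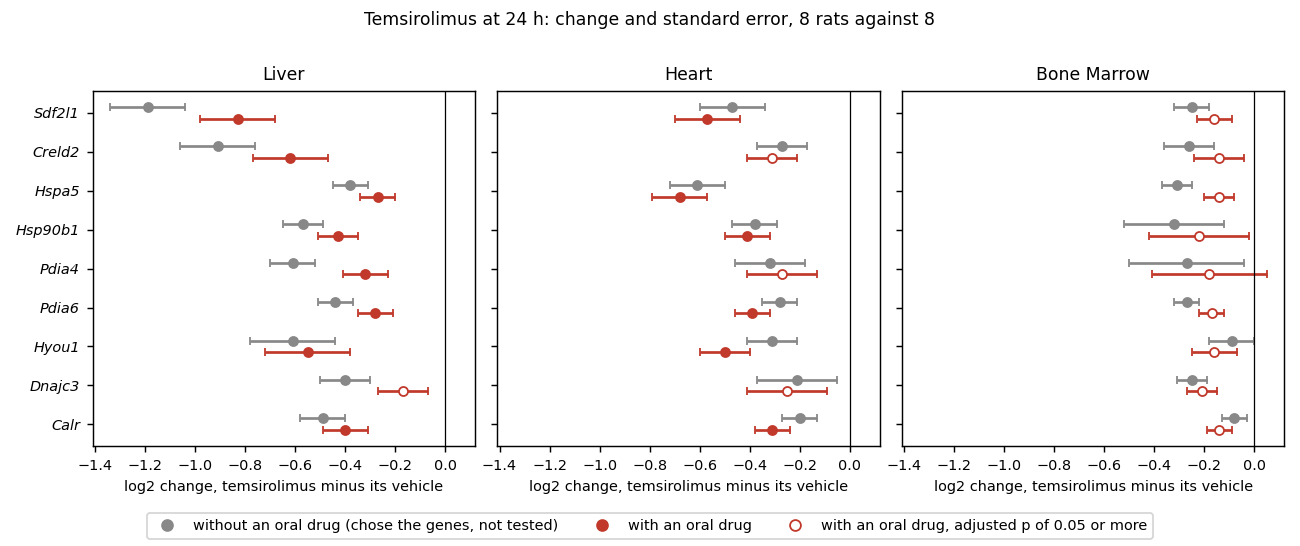
Log2 change with its standard error for each chaperone at 24 h, temsirolimus minus TEM_vehicle, without an oral drug (grey, the comparison that chose the genes) and with one (red), 8 rats against 8; open points did not pass. With an oral drug 8 changes passed in the liver, 6 in the heart and none in the bone marrow, and all 27 were below 0.

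The size of the temsirolimus effect differed between tissues for some chaperones. The comparison was made on differences between the tissues of a rat with an oral drug at 24 h, and called 5.6% of all genes. Hspa5 differed (F = 14.3, adjusted p = 0.000775), with changes of -0.27 ± 0.07 in liver, -0.68 ± 0.11 in heart and -0.14 ± 0.06 in bone marrow. Sdf2l1 differed too (F = 8, adjusted p = 0.0198), with -0.83 ± 0.15 in liver, -0.57 ± 0.13 in heart and -0.16 ± 0.07 in bone marrow. The other 7 did not pass, with Creld2 the nearest (adjusted p = 0.0615). Without the rats whose arrays stood apart 6 passed, which were Sdf2l1, Creld2, Hspa5, Hsp90b1, Pdia6 and Calr, where 3.23% of all genes did. Sdf2l1 lost its call without rat 7M77 (adjusted p = 0.0516) or 6M72 (adjusted p = 0.059). Of the chaperones 3 passed without 8M90, 7M78 or 7M84, and no share of all genes is given for those refits.

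Other genes of the compartment were read from 5 lists, and in the liver their calls stand beside 5.98% of all genes called higher and 1.88% called lower. Of 18 other folding factors, 3 fell in the liver with temsirolimus and an oral drug and none rose: Erp29, a chaperone without isomerase activity (-0.42 ± 0.11, adjusted p = 0.00955), Dnajb11, a J-domain partner of Hspa5 (-0.34 ± 0.10, adjusted p = 0.0218), and Manf, a secreted factor that binds Hspa5 (-0.34 ± 0.11, adjusted p = 0.0352). Their median change was -0.15, beside 0.03 for all genes. Of 22 genes of translocation and N-glycosylation, 2 fell, the translocon-associated proteins Ssr2 (-0.32 ± 0.08, adjusted p = 0.0122) and Ssr1 (-0.24 ± 0.08, adjusted p = 0.0441), and the median was -0.05. Of 14 genes of degradation from the endoplasmic reticulum, none fell and 1 rose, Derl2, a channel component (0.34 ± 0.07, adjusted p = 0.00209), with a median of 0.03.

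Of 13 measured sensors and factors of the unfolded protein response, none passed as lower in the liver and 3 rose: the factor Xbp1 (0.46 ± 0.13, adjusted p = 0.0228), Ppp1r15b, a phosphatase subunit that restores translation (0.41 ± 0.13, adjusted p = 0.0372), and Mbtps1, the protease that cleaves Atf6 (0.24 ± 0.07, adjusted p = 0.0274). The median over the 13 was 0.12. Of 13 chaperones of the cytosol and mitochondria, 1 rose, Dnaja1 (0.26 ± 0.08, adjusted p = 0.0295), and none fell. These liver calls moved without the arrays that stood apart, where 214 of all genes passed as higher and 341 as lower. Then 10 of the 18 folding factors fell and none rose, 12 of the 22 translocation genes fell and none rose, and 1 of the 14 degradation genes fell and 1 rose. Of the 13 sensors and factors none rose and 1 fell, and of the 13 other chaperones none rose and 3 fell. In the heart, 1 folding factor fell, Manf (-0.55 ± 0.10, adjusted p = 0.00188), as did 1 gene of degradation, Selenos (-0.37 ± 0.07, adjusted p = 0.0011), and the mitochondrial chaperonin Hspe1 (-0.19 ± 0.04, adjusted p = 0.0297). None of the sensors and none of the translocation genes passed there, and in the bone marrow none of the 80 genes of the 5 lists did. Without the arrays that stood apart, 0.746% of all genes passed in the heart. There 3 folding factors, 1 of the sensors and factors and 2 of the other chaperones fell. In the bone marrow 2 folding factors then fell, where 1.88% of all genes passed.

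Outside the chaperones, 32 genes held ERSE or ERSE-II, and 22 of them were among the genes tested. This set was drawn up after values had been seen and has no test as a set. With temsirolimus and an oral drug 2 fell in the liver, Dnajb11 and Cdc45, 2 rose, Xbp1 and Rcl1, and the median change was -0.08. Without the arrays that stood apart 4 fell in the liver and none rose, with a median of -0.14, and 1 fell in the heart. With all arrays, in the heart and in the bone marrow none passed in limma, with medians of -0.04 and -0.02.

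At 1 h after dosing no chaperone passed in any tissue for temsirolimus against TEM_vehicle over the 4 oral arms, 16 rats against 16. Limma called none of all genes in the liver, 0.0352% in the heart and 0.00703% in the bone marrow, and 320, 871 and 525 genes had an unadjusted p under 0.05. The median chaperone change was -0.01 in liver, 0.10 in heart and -0.03 in bone marrow. At 6 h none passed in the liver, where 0.00703% of all genes did and 687 had an unadjusted p under 0.05, or in the bone marrow, where 0.0211% and 1488 did.

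**Figure D3:**
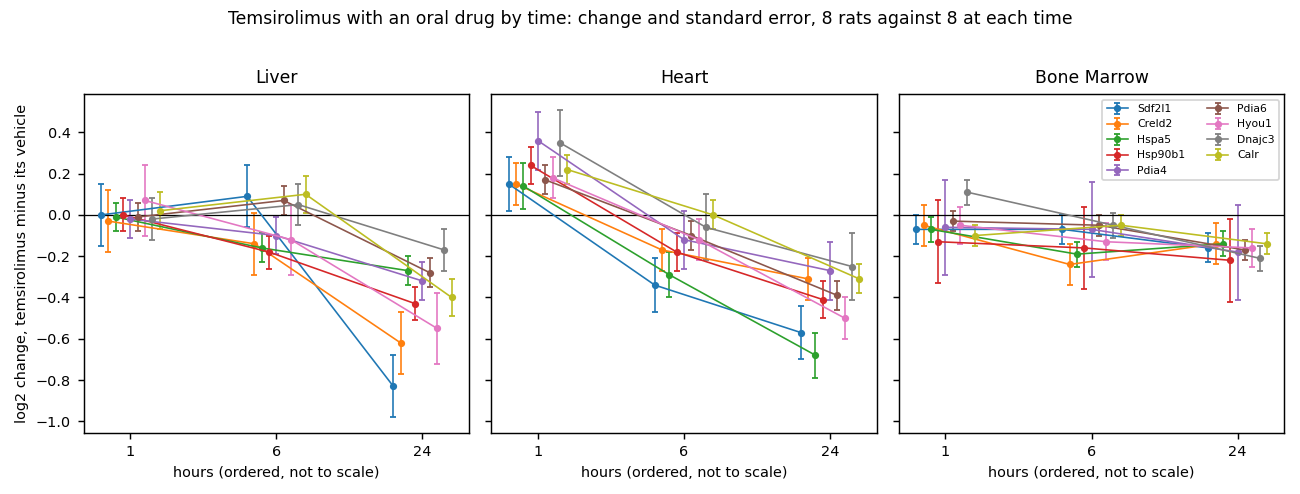
Log2 change with its standard error for each chaperone at 1, 6 and 24 h in rats given an oral drug, temsirolimus minus TEM_vehicle, 8 rats against 8 at each time; the hours are ordered and not to scale. At 24 h the changes lie below 0 in each tissue and reach -0.83 in the liver and -0.68 in the heart.

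In the heart at 6 h 1 chaperone fell, where 0.992% of all genes passed. Hspa5 had a change of -0.27 ± 0.07 (adjusted p = 0.0452), with signals of 10.90, 11.69 and 11.97 (lowest, median and highest) with temsirolimus, against 11.60, 11.91 and 12.31 with the vehicle, so the ranges overlapped widely. The lowest value was that of rat 4M46, and without the arrays that stood apart the change was -0.22 (adjusted p = 0.0826). Hepatocyte genes had a mean level of 8.30 ± 2.33 with temsirolimus and oral drugs and 8.30 ± 2.56 with temsirolimus and oral vehicles, against 6.00 ± 0.15 and 6.20 ± 0.46 in rats given TEM_vehicle. With that level as a covariate the change of Hspa5 was -0.36 (adjusted p = 0.0238). Selenos had -0.18 (adjusted p = 0.0308) at this time.

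Sunitinib and sorafenib without temsirolimus were each set against their own oral vehicle, 4 rats against 4. At 24 h these controls were also controls of the comparison that chose the genes, so those tests are not independent of the choice. None of 81 chaperone changes passed in limma for sunitinib over the 3 tissues and 3 times, and 1 had an unadjusted p under 0.05. Over left-out replicate numbers 0 to 5 passed in the liver, and the share of all genes in those refits is not given here. Sunitinib changed 9.99% of all genes in the liver at 24 h, and 0 and 0.12% there at 1 and 6 h. It changed 0, 2.45% and 3.58% in the heart and 0, 0 and 0.00703% in the bone marrow at 1, 6 and 24 h. In the liver at 24 h the lowest adjusted p of a chaperone was 0.0506, of Dnajc3 with -0.40. That group holds rat 7M78 and also served as vehicle in the comparison of temsirolimus with an oral drug. Without that rat none of the 9 chaperones and none of all genes passed there in limma, with an unadjusted p under 0.05 for 346 genes and no chaperone, and the median chaperone change was 0.09, against -0.15 with it. Without rat 4M48, whose liver belongs to another group, Dnajc3 passed (adjusted p = 0.0484). In the other 8 comparisons the lowest adjusted p of a chaperone was 0.311, of Creld2 in the heart at 6 h.

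For sorafenib 1 of 81 chaperone changes passed, Hspa5 in the bone marrow at 24 h, with -0.32 ± 0.08 (adjusted p = 0.0143), where 3.7% of all genes passed. In the bone marrow 0 and 0.0211% of all genes passed at 1 and 6 h, and at 1, 6 and 24 h sorafenib changed 0, 0.225% and 0.0563% in the liver and 1.81%, 2.98% and 0.352% in the heart. The Hspa5 signals of the bone marrow at 24 h were 11.94, 12.13, 11.95 and 11.86 after TEM_vehicle and Sorafenib, against 12.25, 12.39, 12.11 and 12.39 after TEM_vehicle and F68/PG/PEG400. The ranges met at 1 rat of each group. Without the array of rat 4M45, 5 chaperones passed, which were Creld2 (-0.34, adjusted p = 0.0273), Hspa5 (adjusted p = 0.00336), Pdia4 (-0.44, adjusted p = 0.00317), Pdia6 (-0.21, adjusted p = 0.0198) and Dnajc3 (-0.28, adjusted p = 0.0232), where 12% of all genes did. The call for Hspa5 was lost without replicate 1 (adjusted p = 0.17) or 2 (adjusted p = 0.288) of each group. In the heart at 1 h Hsp90b1 had -0.38 (adjusted p = 0.0832), and it passed without the arrays that stood apart (adjusted p = 0.0211), where 10.3% of all genes did. F68/PG/PEG400 against sterile water gave no call in limma among 81 chaperone changes, of which 6 had an unadjusted p under 0.05, and of all genes it called 0.218% in the liver and 0.176% in the bone marrow at 6 h and 0 in the other 7 comparisons. The lowest adjusted p was 0.0741, of Hsp90b1 in the bone marrow at 6 h with -0.63, in groups that hold rat 4M45.

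The chaperones also varied with time in rats that received vehicles only. Those at 24 h were the controls of the comparison that chose the genes, in the liver with the same arrays. The time test is therefore not independent of the choice. The 3 times lay on partly different array plates, and that difference was not removed, so time and plate cannot be fully told apart. In the bone marrow 5 of 9 passed a moderated F test over the 3 times in limma, where 0.281% of all genes did: Calr (adjusted p = 0.000139), Hspa5 (0.000425), Creld2 (0.000585), Pdia6 (0.000828) and Sdf2l1 (0.0104). In the sterile water arm alone none of the 9 passed, and in the F68/PG/PEG400 arm alone 4 did. Without replicate 1, 2 or 3 of each group 2, 1 and 3 did. No share of all genes is given for these refits, so the counts lack a background. Signals were lowest at 6 h and highest at 24 h for each of the 5 genes. Creld2 averaged 10.41 ± 0.15 at 1 h, 10.03 ± 0.13 at 6 h and 10.63 ± 0.19 at 24 h (SD, n = 8 each), and every rat at 24 h was above every rat at 6 h. The share of all genes separated in this way was not counted. Calr averaged 11.18 ± 0.09, 10.99 ± 0.07 and 11.31 ± 0.08 at the 3 times. The difference of 24 h minus 6 h was 0.60 ± 0.10 for Creld2, 0.36 ± 0.06 for Hspa5, 0.36 ± 0.07 for Sdf2l1, 0.33 ± 0.05 for Calr and 0.30 ± 0.05 for Pdia6 (standard errors).

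**Figure D4:**
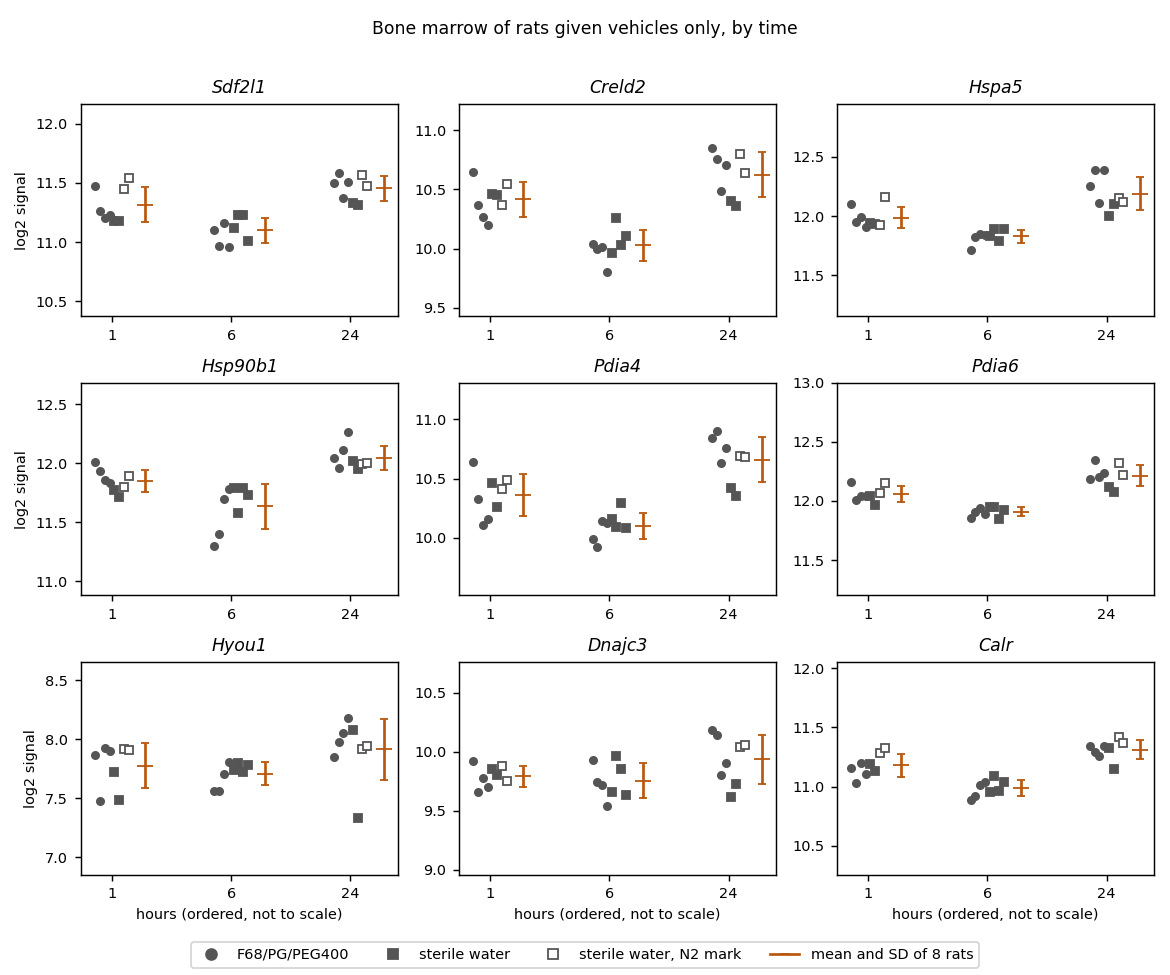
Log2 signal of each chaperone in the bone marrow of each rat given TEM_vehicle with F68/PG/PEG400 (circles) or sterile water (squares) at 1, 6 and 24 h, with open squares for arrays that carry an N2 mark and bars for the mean and SD of 8 rats; the hours are ordered and not to scale. Creld2 averages 10.41 at 1 h, 10.03 at 6 h and 10.63 at 24 h.

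Some of these bone marrow arrays carry an N2 mark in their names, which is not explained in the sources used here. Of the vehicle arrays, 2 at 1 h and 2 at 24 h carry it, all with sterile water, and none at 6 h. With the mark as a covariate 4 chaperones passed, and Sdf2l1 did not (adjusted p = 0.0622). For that fit no share of all genes is given. Without the array of rat 4M45, 7 passed, with Hsp90b1 (adjusted p = 8.8e-05) and Pdia4 (adjusted p = 4.65e-06) added, where 1.21% of all genes did. In the liver 2 passed, where 4.89% of all genes did, which were Creld2 (adjusted p = 0.0297) and Hspa5 (adjusted p = 0.0446), with 24 h minus 6 h differences of 0.55 ± 0.15 and 0.26 ± 0.07. Both liver calls were lost without replicate 1, 2 or 3 of each group and in either vehicle arm alone, and that of Hspa5 also when genes with several probe sets were read from the second (adjusted p = 0.0511). Without the arrays that stood apart 3 passed in the liver, where 12.8% of all genes did. In the heart 1 passed, where 2.41% of all genes did, Creld2 (adjusted p = 0.00503), with 0.38 ± 0.10, and this call was lost without replicate 1 or 3 of each group and in either arm alone. Without the arrays that stood apart 3 passed in the heart, where 5.15% of all genes did. Creld2 had a 6 h minus 1 h difference of -0.43 ± 0.15 in the liver, -0.44 ± 0.10 in the heart and -0.39 ± 0.10 in the bone marrow. All temsirolimus comparisons were made within a time.

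Within groups most pairs of chaperones varied together from rat to rat. Over the 36 pairs of the 9 genes the median correlation of their deviations from the group means was 0.62 in the liver (0.46 without the arrays that stood apart), 0.55 in the heart (0.54) and 0.44 in the bone marrow (0.46). These are descriptions over 96 arrays per tissue, which share their array processing. Among genes outside the 9, those whose medians over the 24 groups followed the mean of the chaperones most closely in the liver were Nme1 (r = 0.955), Ssr2 (0.938), Ssr3 (0.926), Nans (0.925) and Canx (0.924). Ssr2 and Ssr3 are subunits of the translocon-associated complex and Canx is the membrane-bound relative of Calr. In the heart they were Jpt2 (0.949), Manf (0.948), Pdia3 (0.910), Xbp1 (0.904) and Canx (0.846). In the bone marrow they were Ostc (0.912), P4ha1 (0.878), Stip1 (0.872), Pdia3 (0.862) and Manf (0.854). Pdia3 is the isomerase that works with Calr and Canx, and Manf and Xbp1 belong to the lists above.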

How the data were processed

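Arrays were Affymetrix Rat Genome arrays, 96 per tissue. The authors made the deposited values from the scanned arrays by RMA, which corrects the background, quantile-normalizes and summarizes probes, and deposited them as log2 signals per probe set. The version of RMA is not given in the sources used here. Precision is limited by the number of rats, not by read depth.

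Of 31099 probe sets, 20832 had 1 gene symbol in the platform annotation, 436 had several and were left out, and 14218 genes remained with the probe set of the highest mean. Each tissue was fitted in R 4.3.3 with limma 3.58.1 (lmFit, eBayes) with a mean for each of 24 groups and 3 array-set terms, 1 at each time, since 2 of the 4 rats of a group lay on other array plates than the other 2. Some rats given TEM_vehicle and Sorafenib at 24 h lay on another plate than rats of the same set in the groups compared with them. Those groups were given Temsirolimus and Sorafenib, or TEM_vehicle and F68/PG/PEG400. The terms do not remove that difference, or plate differences between times. Values after ± are standard errors of changes unless SD is named. P-values were adjusted over all genes of a comparison by the Benjamini-Hochberg method at 0.05. The fit was checked on simulated data. Tissues were compared on the differences between organs of 1 animal, with the rat as block. The pairing comes from the rat number in the labels, and deviations of the chaperone mean correlated over 96 rats with r = 0.29 between liver and heart, 0.15 between liver and bone marrow and 0.11 between heart and bone marrow.

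All 9 chaperones are described in every comparison. From the other lists, at most 4 called genes with the largest change per comparison are named, and in each tissue the 5 genes of most similar pattern. The members and lists were chosen with earlier results of these data known. Gene names, promoters and the build GRCr8 come from RefSeq, and coordinates are those of RefSeq, not of the array files.

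Alternatives were a filter at a mean log2 signal of 6, renewed quantile normalization, no array-set terms, the second probe set of a gene, all probe sets tested, omission of the arrays that stood apart, of each replicate number and of single rats, the N2 mark or hepatocyte level as a covariate, and either oral arm alone. After the data were seen, omission of the N2 arrays and either vehicle arm alone were added for the time comparison, and omission of the arrays that stood apart for the other gene lists and the genes with ERSE. Array quality measures were not used here.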

Additional observations from a re-analysis of the deposited data

Results flagged for a closer look

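In 3 of 72 groups of 4 rats, the mean log2 signal over the 9 chaperones of 1 rat lay farther from the rest than the critical ratio of Dixon's test, where chance flags about 1 in 20 groups. Rat 4M45 had 9.47 in the bone marrow at 6 h, in the group given Temsirolimus with F68/PG/PEG400, and the other 3 rats had 10.41 to 10.53. In the heart after TEM_vehicle and Sorafenib at 1 h, rat 8M86 had 10.38, against 10.04 to 10.07 in the others. In the bone marrow after TEM_vehicle and Sunitinib at 1 h, rat 7M79 had 10.58, against 10.73 to 10.74.

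The effect of temsirolimus with an oral drug at 24 h differed between the 3 tissues for Hspa5 (adjusted p = 0.000775) and Sdf2l1 (adjusted p = 0.0198), by the F test of the difference in limma. Hspa5 had the largest change in the heart and Sdf2l1 in the liver.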

How the results depend on the processing

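Counts of chaperones called moved with the following settings. For most settings no share of all genes is given, so these counts alone cannot be read as results about the chaperones. For temsirolimus with an oral drug, the liver had 8, with 5 in the sunitinib arm and 0 in the sorafenib arm, the heart had 6, with 0 and 2 in those arms, and the bone marrow had 0, with 1 after renewed quantile normalization, 2 without the arrays that stood apart and 1 in the sunitinib arm. Left-out rats or replicate numbers gave 3 to 9 in the liver, 1 to 6 in the heart and 0 to 1 in the bone marrow. Over all genes, they gave 212 to 3471 calls in the liver, where 1117 passed. For temsirolimus at 1 and 6 h in the heart, the single call became 0 without array-set terms, with the second probe set, with all probe sets, without the arrays that stood apart and without any replicate number (0 to 0). Sunitinib in the liver had 0 and 1 with the filter, and 0 to 5 over left-out replicates. There 9.99% of all genes passed at 24 h with all arrays, 13.2% without rat 4M48 and 0 without rat 7M78. Sorafenib had 0 in the heart, with 1 without the arrays that stood apart and 0 to 1 over left-out replicates, and 1 in the bone marrow, with 2 under the filter, 5 without the arrays that stood apart and 0 to 5 over left-out replicates. For time in vehicle rats, the liver had 2, with 1 for the second probe set and for all probe sets, 3 after renewed quantile normalization (Hsp90b1, adjusted p = 0.0483) and without the arrays that stood apart (Hsp90b1, adjusted p = 0.022), 0 in either vehicle arm, and 0 to 2 over left-out replicates. The heart had 1, with 3 without the arrays that stood apart, 0 in either arm and 0 to 1 over left-out replicates. The bone marrow had 5, with 0 in the sterile water arm, 4 in the F68/PG/PEG400 arm and without the N2 arrays, and 1 to 6 over left-out replicates. The effect between tissues had 2 calls, with 6 without the rats whose arrays stood apart, 1 to 3 over left-out rats, and 2 with no replicate block. The median change with temsirolimus alone in the liver lay between -0.67 and -0.39 over left-out replicates. Creld2 in the liver had a 24 h minus 1 h difference of 0.12, which reversed to -0.06 without replicate 3 and reached 0.23 without replicate 4. Arms and left-out settings hold fewer rats, and the cause of the other moves was not tested.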
